A study of Mus musculus with 2 samples.

Results

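The 9 genes Neurog3, Fev, Pax4, Insm1, Sox4, Cbfa2t3, Gadd45a, Amotl2 and Aldh1a3 are associated with the stage at which pancreatic progenitors turn into hormone cells. They were taken by symbol from the 46983 genes of the count tables, and their unique molecular identifiers (UMIs, 1 per captured transcript) were followed through sorted islet cells of 9-day-old mice. The library labelled Isl1CKO (Neurod1 Cre/+; Isl1f/f) carries 2 floxed alleles of Isl1, a LIM-homeodomain transcription factor of islet cells. The control library (Neurod1 Cre/+; Isl1f/+) carries 1, so both genotypes hold the Neurod1-driven Cre and a floxed allele, and control cells can have lost Isl1 on 1 allele. Each library pooled 6 animals, the cells of both were sorted for the tdTomato reporter, and actinomycin D was present during dissociation. With 1 library per genotype no difference has a replicate check and no test was run. Intervals are exact, at 95%, and hold for counting error alone.

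In the developing pancreas, duct-like progenitors that switch on Neurog3 leave the cell cycle and become endocrine. Neurog3, a basic helix-loop-helix factor, is normally short-lived and turns on genes such as Insm1, Pax4 and Neurod1. Fev marks the stage that follows, before the hormones appear. Neurod1, whose promoter drives the Cre here, lies downstream of Neurog3, so this Cre acts in cells that have already entered the endocrine lineage.

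Promoter sequence from RefSeq (GRCm38.p6, 250 bases before to 50 bases after the start) was found for 6 of the 9 genes. It is shown for Neurog3 and Fev because Neurog3 was divided differently among the classes of each library and Fev differed most between them. Capitals mark every CANNTG, the E-box core that helix-loop-helix factors can bind, and every TAAT on either strand, the core of homeodomain sites.

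Neurog3, chr10:62132840-62133139, plus strand: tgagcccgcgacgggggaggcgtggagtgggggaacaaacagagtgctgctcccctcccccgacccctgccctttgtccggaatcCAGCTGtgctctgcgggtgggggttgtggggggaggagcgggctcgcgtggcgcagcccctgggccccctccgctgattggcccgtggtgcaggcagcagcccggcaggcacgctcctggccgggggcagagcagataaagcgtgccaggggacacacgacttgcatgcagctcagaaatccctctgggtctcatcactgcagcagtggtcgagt

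Fev, chr1:74885359-74885658, minus strand: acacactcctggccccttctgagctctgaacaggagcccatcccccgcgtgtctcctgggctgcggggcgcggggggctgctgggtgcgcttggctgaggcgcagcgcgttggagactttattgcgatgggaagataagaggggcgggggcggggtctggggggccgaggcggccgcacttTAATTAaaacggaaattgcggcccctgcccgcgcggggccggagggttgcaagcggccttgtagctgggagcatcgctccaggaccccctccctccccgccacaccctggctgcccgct

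The Neurog3 window holds 1 CANNTG and 0 TAAT, and the Fev window holds 0 CANNTG and 2 TAAT that overlap on opposite strands. Among 32851 promoter windows of this length, 72.3% hold a CANNTG and 58.0% a TAAT. These matches describe the letters and say nothing about binding. The Neurog3 gene lies on chromosome 10 at 62133090 to 62134763 (plus strand), and Fev on chromosome 1 at 74881509 to 74885419 (minus strand), in GENCODE M21 on GRCm38. None of the 9 genes shares exon sequence with another gene on its strand.

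The Isl1CKO library held 3020 cells with 78068592 UMIs and the control library 2504 called cells with 72548173 UMIs. Median depth was 24906 UMIs per Isl1CKO cell and 22638 UMIs per control cell, and 4 barcodes were shared. Hormone and class genes took 20.2% of Isl1CKO UMIs and 54.2% of control UMIs. Cells were sorted into classes by the share of their UMIs. The Isl1CKO library had 383 cells with Ins1 and Ins2 at 20% or more, 2 with Gcg at 10% or more, 6 with Sst at 5% or more, 1437 with Ttr at 5% or more, 437 with Chgb at 4% or more and 755 remaining cells. The control library had 898 insulin, 610 glucagon, 531 somatostatin and 465 remaining cells under the same hormone rules. Control somatostatin cells carried Hhex, a delta-cell factor, at 445 CPM (counts scaled to a constant UMI total). Isl1CKO Ttr cells carried the alpha-cell gene Irx2 at 198 CPM and control glucagon cells at 138 CPM. Isl1 itself was counted at 461 CPM in the Isl1CKO library and 253 CPM in the control library. The floxed exon is not named in the labels, and 3′ tags may lie outside it, so these counts give no check of the deletion.

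**Figure D1:**
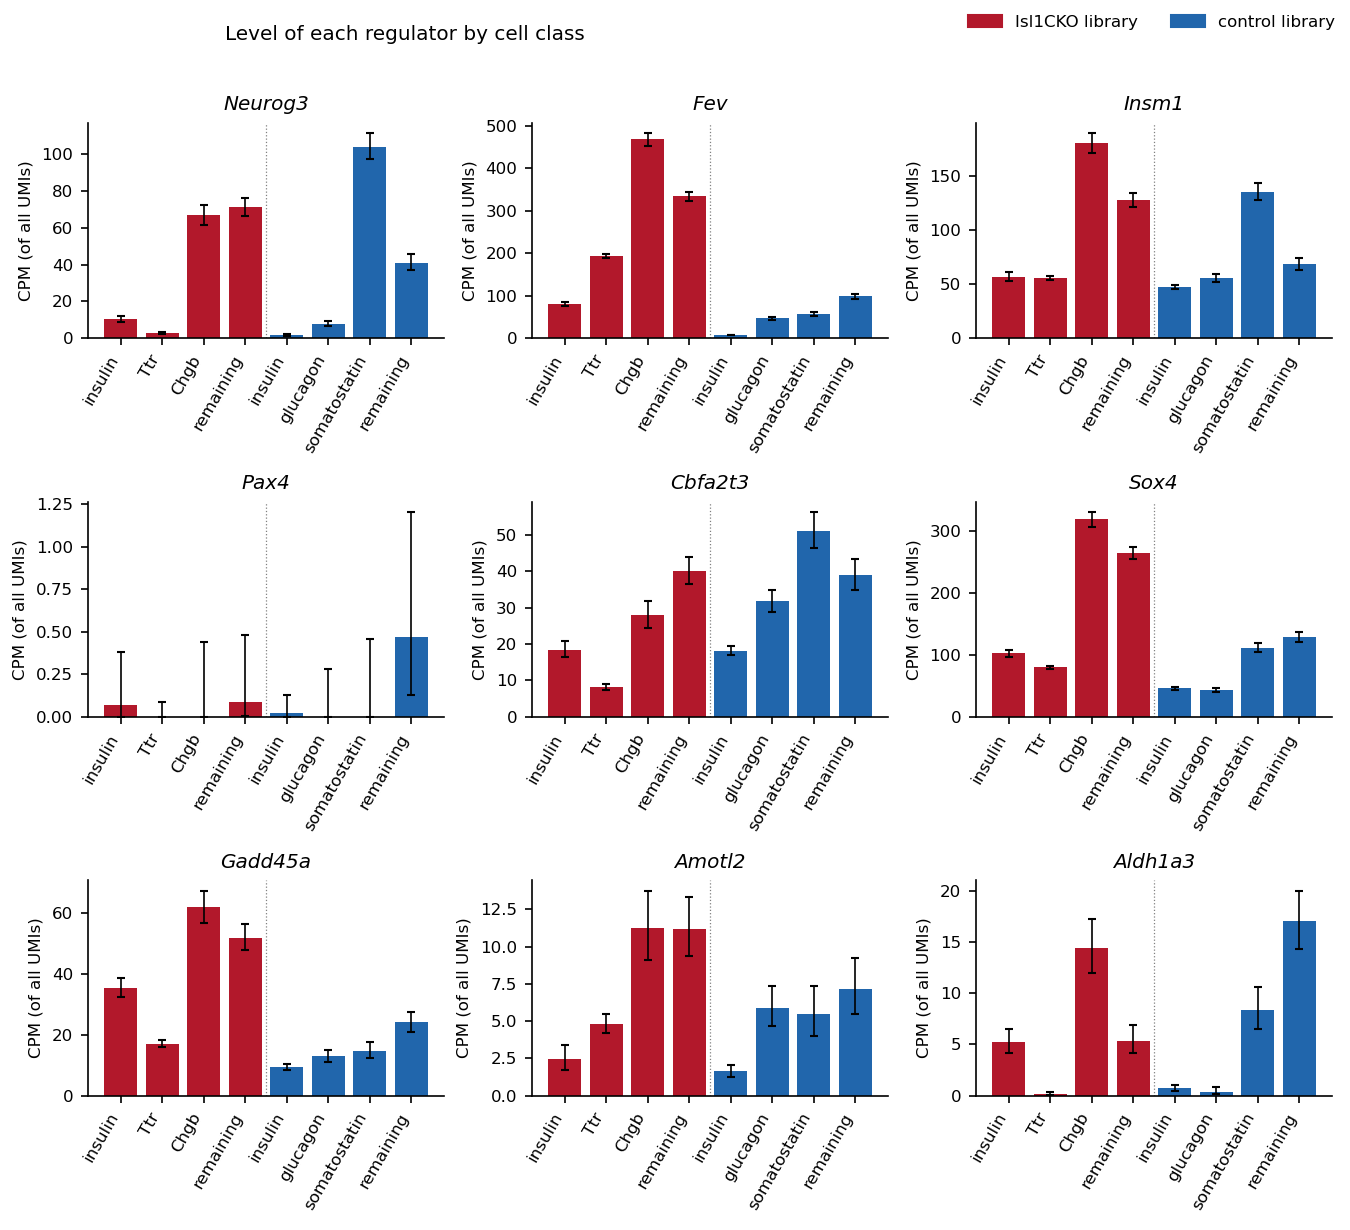
Level of each regulator in CPM of all UMIs (bars, separate scales from 0) in the Isl1CKO classes (red) and the control classes (blue), with exact 95% Poisson intervals for counting error. Among the 8 classes of at least 50 cells, Neurog3 stood highest in control somatostatin cells, at 104 CPM, and Fev, Insm1, Sox4 and Gadd45a stood highest in Isl1CKO Chgb cells. Outside hormone and class genes, Gadd45a stood higher in Isl1CKO insulin cells (80.8 CPM) than in Chgb cells (73.0 CPM).

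Fev was the regulator that differed most between the 2 libraries. Over all cells it was counted at 222 CPM in Isl1CKO (218 to 225) and 30.8 CPM in control (29.5 to 32.1). Because hormones take fewer UMIs in the mutant, the median gene was itself 0.58 higher there on the log2 scale, and ratios are therefore given relative to that gene. On this scale Fev was 4.82-fold higher in Isl1CKO cells (log2 2.27, 2.21 to 2.33). Cbfa2t3 was the only regulator at least 2-fold lower, at 17.0 CPM in Isl1CKO and 26.7 CPM in control (log2 −1.23, −1.33 to −1.13). Of the 8 genes with the minimum of 50 UMIs, 1 was thus higher and 1 lower, where 5.21% of the 14420 genes compared were higher and 6.82% lower. Such library-wide sums mix how many cells each class held with how much each cell expressed, so the classes follow.

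Without centring on the median gene, Fev, Sox4 and Gadd45a passed 2-fold and Cbfa2t3 did not. In that case 82.8% of the genes past 2-fold were higher in Isl1CKO, against 43.3% with centring. Without it the share was 81.3% instead of 51.2% for insulin cells, 67.9% instead of 54.5% for Ttr against glucagon cells, and 83.3% instead of 42.9% for the remaining Isl1CKO cells against the other Isl1CKO cells.

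**Figure D2:**
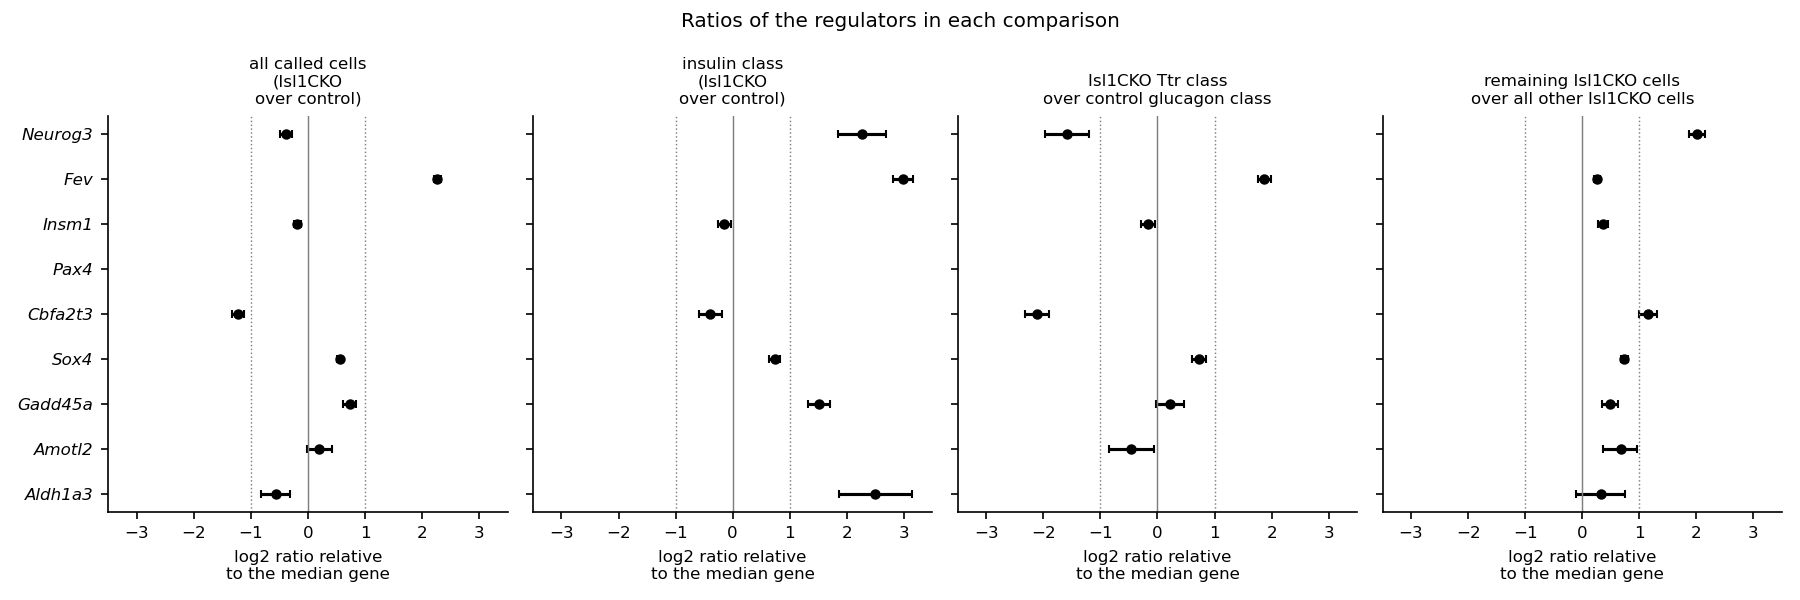
Log2 ratio of each regulator relative to the median gene (points, exact 95% intervals for counting error) in the 4 comparisons, with dotted lines at 2-fold. Genes under the minimum of 50 UMIs have no point. Fev lay above the upper line in the 3 comparisons of Isl1CKO with control and at 0.25 within the Isl1CKO library.

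Neurog3 differed by less than 2-fold in total, and its UMIs were divided differently among the classes of each library. Over all cells it was counted at 21.4 CPM in Isl1CKO (20.4 to 22.4) and 18.7 CPM in control (17.8 to 19.8). The ratio was −0.39 on the log2 scale relative to the median gene and 0.19 without centring, so its direction depends on the scale. By class, Isl1CKO cells had 71.2 CPM in the remaining class (66.4 to 76.2), 66.9 CPM in the Chgb class (61.5 to 72.6), 10.3 CPM in the insulin class (8.71 to 12.1) and 2.96 CPM in the Ttr class (2.47 to 3.51). Control cells had 104 CPM in the somatostatin class (97.3 to 112), 41.0 CPM in the remaining class (36.8 to 45.5), 7.86 CPM in the glucagon class (6.42 to 9.53) and 1.61 CPM in the insulin class (1.26 to 2.04). In the order of the 8 levels, intervals overlapped between Isl1CKO remaining and Chgb cells and between Isl1CKO insulin and control glucagon cells, and between no other neighbours. Parts of this order depend on the scale. Scaled to UMIs outside hormone and class genes, Neurog3 was at 78.8 CPM in Isl1CKO Chgb cells and 76.4 CPM in Isl1CKO remaining cells. On that scale control insulin cells, at 5.23 CPM, lay above Isl1CKO Ttr cells, at 3.38 CPM. The remaining classes are not alike, since the control one also holds 208 cells rich in Ppy, 29 in Chgb, 12 in Ttr and 40 in other lineages. Neurog3 was at 72.5 CPM in the 731 remaining Isl1CKO cells not rich in other lineages (67.6 to 77.6), which were not sorted by Ppy, and at 75.4 CPM in the other 176 control cells (65.3 to 86.6), with overlap. The 6 Isl1CKO somatostatin cells held 5 Neurog3 UMIs, spread over 4 cells.

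Of the Neurog3 UMIs of the Isl1CKO library, 49.2% lay in remaining cells, 33.8% in Chgb cells, 9.05% in insulin cells and 7.67% in Ttr cells, although Ttr cells made up 47.6% of the cells. In the control library 61.6% lay in somatostatin cells, 25.7% in remaining cells, 7.65% in glucagon cells and 5.08% in insulin cells. Fev was divided differently, with 48.3% of its Isl1CKO UMIs in Ttr cells, and with 37.4% of its control UMIs in remaining and 27.8% in glucagon cells.

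**Figure D3:**
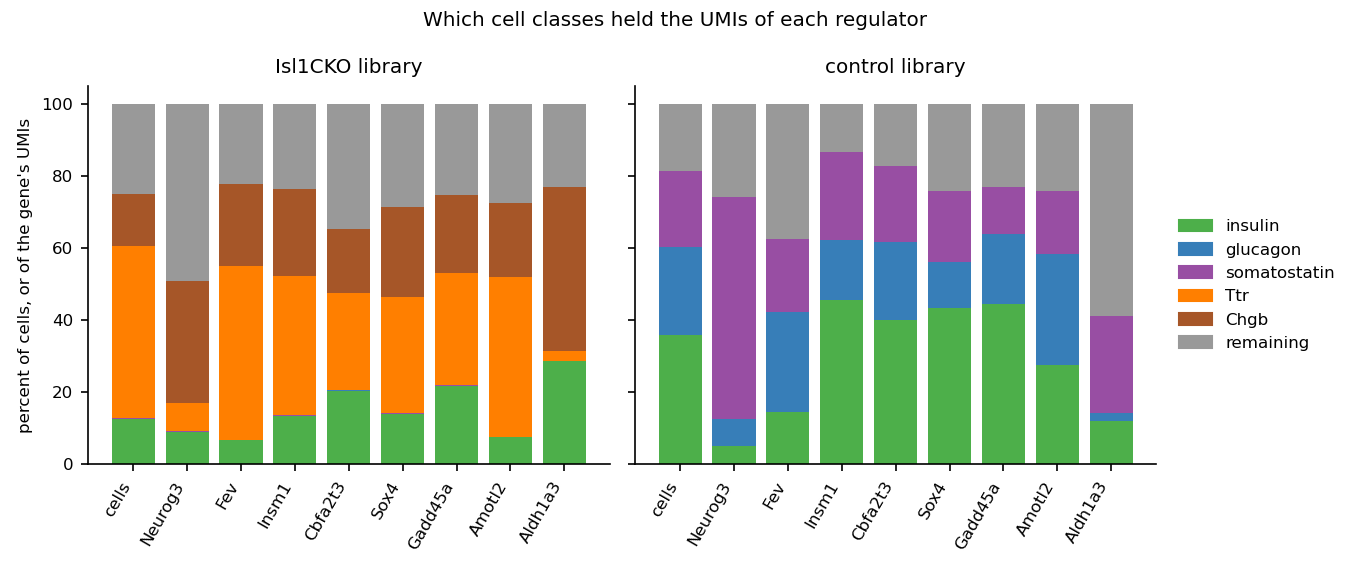
Percent of the cells (first bar) and of the UMIs of each regulator held by each cell class, in the Isl1CKO library (left) and the control library (right). Neurog3 UMIs lay mostly in remaining and Chgb cells of Isl1CKO and in somatostatin cells of control. Pax4 is left out, with 2 and 5 UMIs.

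Many control somatostatin cells carried Neurog3, and few other hormone cells of that library did. A UMI of it was found in 67.2% of control somatostatin cells (63.1 to 71.2) and 4.79% of control insulin cells (3.49 to 6.40). In the Isl1CKO library it was found in 51.5% of Chgb cells (46.7 to 56.3), 39.2% of remaining cells (35.7 to 42.8) and 4.38% of Ttr cells (3.39 to 5.57), and control glucagon cells stood at 8.69% (6.58 to 11.2). Depth differed, with medians of 14398 UMIs in control somatostatin cells and 18507, 13793 and 29001 UMIs in the 3 Isl1CKO classes. After each cell was thinned to 4500 UMIs the shares were 22.4%, 21.9% and 1.32% in Isl1CKO Chgb, remaining and Ttr cells, and 34.3% and 3.11% in control somatostatin and glucagon cells. All cells passed that depth. Mesenchyme-rich cells, which should lack the gene, gave 0 of 20 Isl1CKO cells and 0 of 40 control cells with a Neurog3 or Fev UMI. This allows shares of up to 16.8% and 8.81% at median depths of 7876.5 and 7975 UMIs. Control barcodes with 1 to 100 UMIs, which carry free RNA, held Neurog3 at 10.6 CPM and Fev at 30.6 CPM. Control insulin and glucagon cells lay below that level for Neurog3. The interval of Isl1CKO insulin cells, at 10.3 CPM (8.71 to 12.1), included it, and Isl1CKO Ttr cells, at 2.96 CPM, lay below. The Isl1CKO file has no such barcodes, so the free RNA of that library was not measured.

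**Figure D4:**
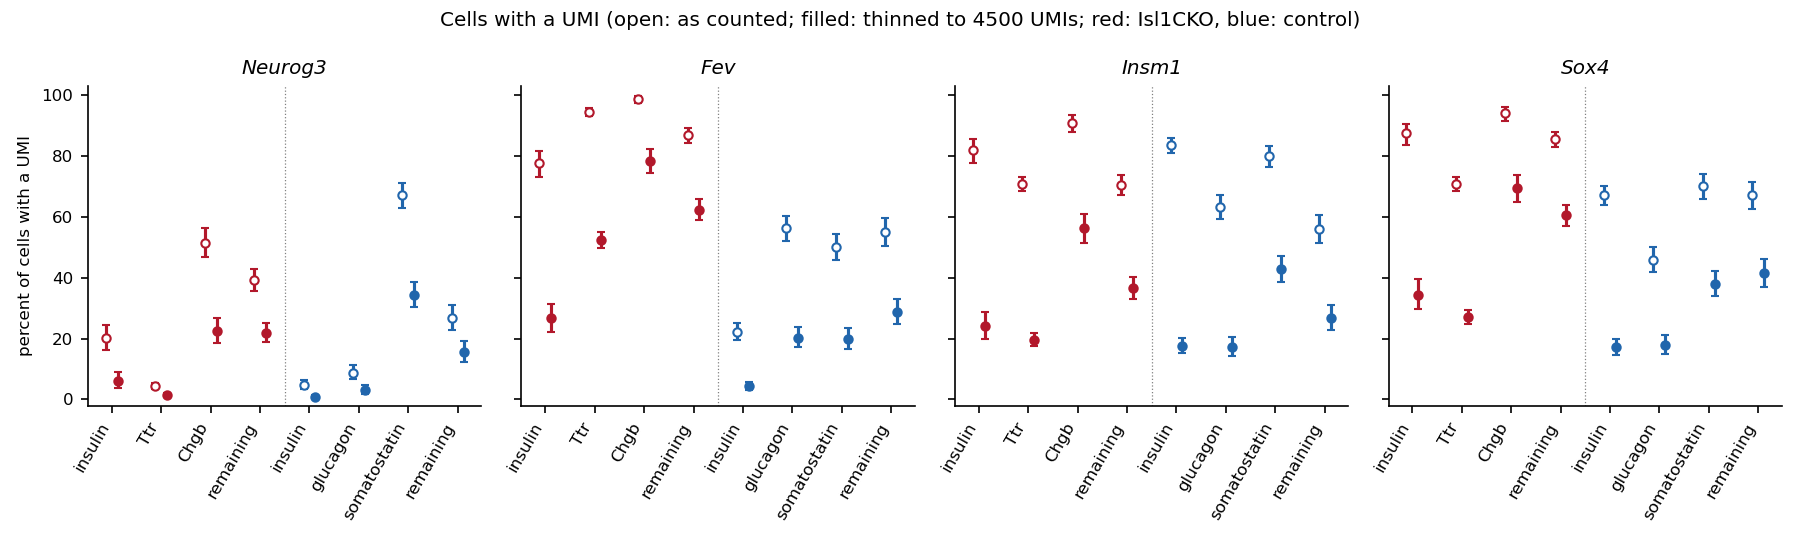
Percent of cells with at least 1 UMI of Neurog3, Fev, Insm1 and Sox4 by class, as counted (open) and after thinning each cell to 4500 UMIs (filled), with exact 95% binomial intervals; Isl1CKO in red, control in blue. After thinning, Neurog3 was found in 22.4% of Isl1CKO Chgb cells and 34.3% of control somatostatin cells, and Fev in 78.5% and 19.8% of the same cells.

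Fev was widespread in the mutant. It stood at 467 CPM in Isl1CKO Chgb cells (453 to 482), 333 CPM in remaining cells (323 to 344), 193 CPM in Ttr cells (189 to 197) and 79.5 CPM in insulin cells (75.0 to 84.2). Control cells had 98.0 CPM in the remaining class (91.5 to 105), 56.8 CPM in the somatostatin class (51.7 to 62.2), 46.9 CPM in the glucagon class (43.2 to 50.7) and 7.55 CPM in the insulin class (6.75 to 8.42). The 3 Isl1CKO classes other than insulin lay above all 4 control classes, Isl1CKO insulin cells lay between control remaining and control somatostatin cells, and no neighbours in this order had overlapping intervals. That place of insulin cells depends on the scale. Scaled to UMIs outside hormone and class genes, Fev was at 181 CPM in Isl1CKO insulin cells, against 141 CPM in control remaining and 82.6 CPM in control somatostatin cells. After thinning, 78.5% of Isl1CKO Chgb cells and 52.5% of Ttr cells held a Fev UMI, against 28.8% of remaining and 20.3% of glucagon cells of control.

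Insulin cells are the 1 hormone class with many cells in both libraries, and 4 of the 7 regulators compared there were at least 2-fold higher in Isl1CKO. The background was 4.97% of 10080 genes higher and 4.73% lower, and the median gene stood 0.41 above 0 in log2. The regulators and class rules were chosen with earlier results known, so this count describes them and is no independent check. The minimum of 50 UMIs held only for the side with the higher CPM. Aldh1a3 passed it with 77 UMIs in Isl1CKO and 30 UMIs in control. Amotl2, with 36 UMIs in Isl1CKO and 70 UMIs in control, did not. Fev was 7.91-fold higher relative to the median gene (log2 2.98, 2.80 to 3.17). Aldh1a3, a retinaldehyde dehydrogenase that dedifferentiated beta cells are known to carry, was counted at 5.24 CPM in Isl1CKO insulin cells and 0.701 CPM in control insulin cells (log2 2.49, 1.86 to 3.15). Neurog3 was 4.79-fold higher (log2 2.26, 1.84 to 2.69), from 151 UMIs in Isl1CKO and 69 UMIs in control. Gadd45a, a growth-arrest gene that is also switched on by DNA damage, stood at 35.5 CPM in Isl1CKO and 9.33 CPM in control insulin cells (log2 1.51, 1.32 to 1.71). Sox4 was higher by less than 2-fold (log2 0.74), and Insm1 (−0.14) and Cbfa2t3 (−0.39) lay below the median gene, but above 0 without centring.

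The sexes were unequally represented in this class, and Fev and Neurog3 differed within each. Cells with Xist but no Y-linked UMIs made up 57.7% of Isl1CKO and 20.9% of control insulin cells. Among those cells Fev was counted at 58.2 CPM in Isl1CKO and 7.58 CPM in control, and among cells with Y-linked but no Xist UMIs at 120 CPM in Isl1CKO and 7.17 CPM in control. Neurog3 was counted at 7.37 CPM in Isl1CKO and 1.61 CPM in control among Xist cells, and at 16.8 CPM in Isl1CKO and 1.35 CPM in control among Y-linked cells, where its ratio was 3.00. Gadd45a was the exception. Its ratio was 0.86 in Xist cells, under 2-fold, and 1.95 in Y-linked cells. Aldh1a3 had 36 and 31 UMIs in the Isl1CKO Xist and Y-linked insulin cells, under the minimum. Its levels were 4.08 and 6.77 CPM in these Isl1CKO cells, and 0.804 and 0.673 CPM in the control Xist and Y-linked cells. With all cells thinned to 4500 UMIs, Neurog3 and Aldh1a3 were under the minimum too, so 2 of 4 genes passed. The mesenchyme-rich Isl1CKO cells allow up to 21.5 CPM of Neurog3 at their depth, which is above its level in Isl1CKO insulin cells. Isl1CKO Ttr cells, at 2.96 CPM, lay below them.

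Ttr cells were the largest Isl1CKO class and were set beside control glucagon cells, since both carry Irx2 and Gc. Fev was 3.66-fold higher in Isl1CKO Ttr cells (log2 1.87, 1.76 to 1.99). Cbfa2t3, a corepressor of the ETO family, was counted at 8.24 CPM in Ttr cells and 31.7 CPM in control glucagon cells (log2 −2.11, −2.32 to −1.90). Neurog3 was also lower, at 2.96 CPM in Ttr cells and 7.86 CPM in control glucagon cells (log2 −1.58, −1.96 to −1.19). This value varied with sex. Among Y-linked cells Neurog3 was at 3.98 CPM in Ttr cells and 7.03 CPM in glucagon cells (log2 −1.004, −1.48 to −0.52), and among Xist cells, under the minimum, at 0.651 CPM in Ttr cells and 8.68 CPM in glucagon cells. Xist cells made up 39.2% of Ttr cells and 20.98% of glucagon cells. Of 7 regulators compared, 1 was thus higher and 2 lower, where 8.75% of 11928 genes were higher and 7.3% lower. Insm1 had 55.6 CPM in both classes. These classes were chosen by different genes, and what this choice adds to the differences was not tested.

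The remaining Isl1CKO cells, which passed no class rule, held more of 2 regulators than the other 2265 cells of their library. Neurog3 was 4.05-fold higher (log2 2.02, 1.88 to 2.16), at 71.2 CPM in the remaining cells and 12.7 CPM in the others. The others were mostly the 1437 Ttr cells, at 2.96 CPM. Chgb cells, also among them, had 66.9 CPM (61.5 to 72.6), with an interval that overlapped that of the remaining cells (66.4 to 76.2). Among Xist cells the Neurog3 ratio of the remaining cells over all the others was 3.20. Cbfa2t3 was 2.22-fold higher, at 40.0 CPM in the remaining cells and 13.0 CPM in the others (log2 1.15, 0.99 to 1.32). The other 6 of the 8 genes compared had ratios of 0.25 to 0.73, all under 2-fold. Among 11800 genes 3.74% were higher and 4.97% lower. Without centring Sox4 and Amotl2 passed as well. Some of these cells carried other lineages. The 6 mesenchyme markers summed to 368 CPM in the remaining cells, where none was at 0, and to 0.948 and 1.18 CPM in the Chgb and Ttr classes. The 6 acinar markers summed to 758 CPM in the remaining cells and to 64.0 and 10.2 CPM in the Chgb and Ttr classes. Leaving out the 24 cells rich in mesenchyme, acinar and similar genes kept 2 of 7 genes past 2-fold. Neurog3 was then at 72.5 CPM and Cbfa2t3 at 39.9 CPM in the remaining cells.

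Insm1, a zinc-finger factor needed for endocrine differentiation, had a class order that depends on the scale. Of all UMIs it stood at 180 CPM in Isl1CKO Chgb cells and 128 CPM in remaining cells, and at 135 CPM in control somatostatin cells. Every other class of at least 50 cells lay between 47.2 and 68.5 CPM. Scaled to UMIs outside hormone and class genes, it stood at 213, 137 and 129 CPM in Isl1CKO Chgb, remaining and insulin cells, and at 197 and 153 CPM in control somatostatin and insulin cells. Over all cells the level of all UMIs was 80.1 CPM in Isl1CKO and 61.0 CPM in control. Its ratio was −0.18 relative to the median gene and 0.39 without centring, so no direction is given.

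Pax4, which promotes the beta and delta fates and is a known Neurog3 target, was counted at 2 UMIs in the Isl1CKO library and at 5 UMIs, in 4 cells, in the control library. It was under the minimum and not compared.

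Sox4, an SRY-related factor that promotes endocrine differentiation, was higher in Isl1CKO insulin, Ttr and remaining cells than in control insulin, glucagon and remaining cells, by under 2-fold relative to the median gene in the insulin pair and the Ttr and glucagon pair (log2 0.74 and 0.73). No ratio was taken between the remaining cells of the libraries. It was counted at 319 CPM in Isl1CKO Chgb cells, 264 CPM in remaining cells, 102 CPM in insulin cells and 79.9 CPM in Ttr cells. Control cells had 129 CPM in the remaining class, 112 CPM in the somatostatin class, 46.2 CPM in the insulin class and 43.0 CPM in the glucagon class. The ratio over all cells was 0.55 on the log2 scale relative to the median gene (0.50 to 0.60), under 2-fold. Sox4 is not confined to endocrine cells, and mesenchyme-rich cells carried 198 CPM in Isl1CKO and 204 CPM in control.

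Of all UMIs, Gadd45a stood at 62.0 CPM in Isl1CKO Chgb cells, 52.1 CPM in remaining cells, 35.5 CPM in insulin cells and 17.1 CPM in Ttr cells. Control classes ranged from 9.33 CPM in insulin cells to 24.1 CPM in remaining cells. Over all cells the ratio was 0.73 relative to the median gene (0.62 to 0.84). Its relatives Gadd45b and Gadd45g went the other way, with Gadd45g at 30.4 CPM in Isl1CKO and 77.5 CPM in control (log2 −1.93) and Gadd45b at 14.3 CPM in Isl1CKO and 21.1 CPM in control (log2 −1.14). Both were also at least 2-fold lower in Isl1CKO insulin cells. Of 8 p53 and DNA damage genes, 0 were past 2-fold over all cells, and in insulin cells 0 were higher and 1, Cdkn1a, was lower. The shares of all genes were 5.21% higher and 6.82% lower over all cells, and 4.97% and 4.73% in insulin cells.

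Amotl2, an angiomotin that holds back the Hippo effector YAP, stayed under 2-fold between the libraries. It was counted at 5.99 CPM in Isl1CKO and 3.49 CPM in control, a ratio of 0.20 relative to the median gene (−0.02 to 0.43). It ranged from 2.45 CPM in insulin cells to 11.3 CPM in Chgb cells of Isl1CKO, and from 1.64 CPM in insulin cells to 7.17 CPM in remaining cells of control. Of 8 Hippo and angiomotin genes compared over all cells, 1 was lower, Amot (log2 −1.62), and 0 were higher. The shares of all genes there were 6.82% lower and 5.21% higher.

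Aldh1a3 was patchy, and its library-wide ratio depended on which cells were counted. Mesenchyme-rich cells carried 152 CPM in Isl1CKO (20 cells) and 288 CPM in control (40 cells), and the 40 control cells held 106 of the 145 Aldh1a3 UMIs of control remaining cells. Over all cells the ratio was −0.56. It was 0.08 without cells rich in other lineages and 0.02 without centring, and −1.25 after thinning. It was 1.61 among Xist cells, at 3.43 CPM in Isl1CKO and 0.789 CPM in control, and −1.02 among Y-linked cells, at 3.24 CPM in Isl1CKO and 4.07 CPM in control. By class it stood at 14.5 CPM in Isl1CKO Chgb cells, 8.34 CPM in control somatostatin cells, 5.24 CPM in Isl1CKO insulin cells and under 1 CPM in Isl1CKO Ttr, control insulin and control glucagon cells. Within the Isl1CKO Chgb class the 61 Xist cells had 43.3 CPM (32.4 to 56.6) and the 348 Y-linked cells 8.48 CPM (6.43 to 11.0).

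Cells with 3 or more Neurog3 UMIs lay in different classes in each library, but the classes open to them differed too. The Ttr and Chgb rules were not used for control cells, and the Isl1CKO library held only 6 somatostatin cells. There were 233 Isl1CKO cells with 3 or more Neurog3 UMIs, of which 51.9% were remaining and 36.1% Chgb cells. Of 209 such control cells, 63.6% were somatostatin and 25.4% remaining cells. The median share of Sst in cells with 3 or more Neurog3 UMIs was 0% in Isl1CKO and 8.21% in control. In cells without a Neurog3 UMI it was 0% in Isl1CKO as well and 0.00894% in control. The Isl1CKO value is thus not particular to Neurog3 cells. Sst was not the only hormone gene of the control cells with 3 or more Neurog3 UMIs. Their median shares of Pyy and Ppy were 9.77% and 2.62%, against 0.383% and 0.0541% in control cells without a Neurog3 UMI. Isl1CKO cells with 3 or more Neurog3 UMIs had median shares of 0.0157% Pyy and 0% Ppy. Hhex stood at 36.9 CPM in Isl1CKO and 343 CPM in control cells with 3 or more Neurog3 UMIs. Fev was counted in these cells at 426 CPM in Isl1CKO and 89.3 CPM in control, and Sox4 at 272 CPM in Isl1CKO and 128 CPM in control. The proliferation gene Mki67 was at 2.90 CPM in Isl1CKO and 12.8 CPM in control, and cells without a Neurog3 UMI had 38.7 CPM in Isl1CKO and 34.7 CPM in control. Of the Isl1CKO cells without a Neurog3 UMI, 58.3% were Ttr cells. Cells with 5 or more UMIs of 11 proliferation genes made up 18.1% of Isl1CKO Ttr, 4.24% of remaining and 3.20% of Chgb cells. In control they made up 15.6% of glucagon, 11.0% of remaining, 7.24% of insulin and 5.08% of somatostatin cells. What class make-up adds to the Mki67 difference was not tested.

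How often Fev was found beside Neurog3 was counted within classes, and differences between classes were not tested. After thinning to 4500 UMIs, Fev was found in 73.3% of the 165 Isl1CKO remaining cells with a Neurog3 UMI (65.9 to 79.9) and 59.3% of the 590 without (55.2 to 63.3). Isl1CKO Chgb cells had 83.7% of 98 with (74.8 to 90.4) and 77.0% of 339 without (72.1 to 81.4), which overlap. Isl1CKO insulin cells had 47.8% of 23 with (26.8 to 69.4) and 25.3% of 360 without (20.9 to 30.1), which overlap too. Control remaining cells had 47.2% of 72 with (35.3 to 59.3) and 25.4% of 393 without (21.2 to 30.1). Control somatostatin cells had 19.8% both of the 182 cells with and of the 349 cells without a Neurog3 UMI. So Fev was found more often beside Neurog3 in the remaining cells of both libraries, which include mesenchyme-rich cells with neither gene. In control somatostatin cells the intervals with and without Neurog3 ran from 14.3 to 26.3% and from 15.7 to 24.3%. Cbfa2t3 in control somatostatin cells stood at 24.7% of cells with (18.6 to 31.7) and 14.9% of cells without (11.3 to 19.1), and these intervals overlap.

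Control cells rich in Chgb were few. The intervals of Neurog3, Fev, Insm1, Cbfa2t3, Gadd45a and Amotl2 in them overlapped those of Isl1CKO Chgb cells. These 29 control cells, chosen after their values were seen, are set beside the 437 Isl1CKO Chgb cells without a ratio. Neurog3 stood at 66.9 CPM in Isl1CKO Chgb cells and 72.0 CPM in control Chgb cells (50.1 to 100). Fev was at 467 CPM in Isl1CKO and 415 CPM in control (360 to 477), and Insm1 at 180 CPM in Isl1CKO and 160 CPM in control (127 to 200). Sox4 was at 319 CPM in Isl1CKO (307 to 331) and 403 CPM in control (348 to 463), and Aldh1a3 at 14.5 CPM in Isl1CKO and 47.3 CPM in control (30.0 to 70.9), without overlap. The enterochromaffin genes Tph1 and Tac1, for serotonin synthesis and substance P, were at 14.2 and 111 CPM in Isl1CKO Chgb cells, and at 185 and 473 CPM in control Chgb cells. Control cells with Ppy at 5% or more, 208 in number, held 24.1 CPM of Neurog3 and 58.4 CPM of Fev.

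**Figure D5:**
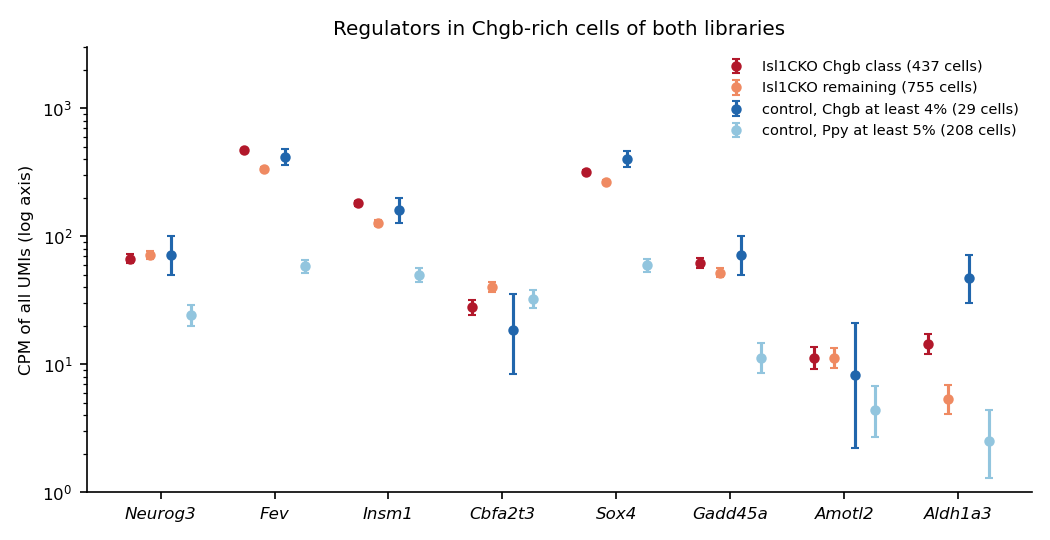
Level of 8 regulators in CPM of all UMIs (log axis, exact 95% Poisson intervals) in Isl1CKO Chgb and remaining cells and in control cells with Chgb at 4% or Ppy at 5% of UMIs. For Neurog3, Fev and Insm1 the 29 control Chgb cells lay at 72.0, 415 and 160 CPM, and Pax4, with 2 UMIs in them, is left out.

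The wider programme around Neurog3 did not move as a block. Of 24 proendocrine genes listed, 23 were compared over all cells, and 1 was at least 2-fold higher and 6 lower in Isl1CKO, with a median ratio of −0.16 on the log2 scale. The median over all genes is 0 on this scale. Chga, the chromogranin A gene, was the higher one (log2 1.28). Among the lower ones, Pdx1, a beta-cell factor, was at 46.4 CPM in Isl1CKO and 116 CPM in control (log2 −1.91). Peg10, Cer1, Sox11 and Mfng were lower as well. In insulin cells 0 of 20 were higher and 2 lower, Peg10 among them. Isl1CKO Ttr cells against control glucagon cells gave 2 higher and 5 lower of 20, with Hes6, an antagonist of Hes1, at 82.3 CPM in Ttr cells and 34.5 CPM in glucagon cells (log2 1.08). Of all genes compared, 5.21% were higher and 6.82% lower over all cells. These shares were 4.97% and 4.73% in insulin cells, and 8.75% and 7.3% in Ttr against glucagon cells.

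Notch signalling restrains Neurog3 in progenitors, and 11 of 16 Notch genes listed were compared over all cells. Lfng, a glycosyltransferase that modifies Notch, was higher, at 3.27 CPM in Isl1CKO and 0.317 CPM in control (log2 2.79). Notch1, Jag2 and Mfng were lower, with ratios of −1.05 to −1.16. In insulin cells 1 of 7 was higher, the ligand gene Dll4 (log2 1.41), and 0 were lower. Genes of the duct, where Neurog3 cells arise, showed 0 higher and 2 lower of 8 over all cells. Sox9 was at 3.50 CPM in Isl1CKO and 16.4 CPM in control (log2 −2.81). In Isl1CKO Ttr against control glucagon cells 4 of 8 duct genes were higher, among them Spp1 at 154 CPM in Ttr cells and 33.7 CPM in glucagon cells (log2 2.03). Of all genes compared, 5.21% were higher and 6.82% lower over all cells, 4.97% and 4.73% in insulin cells. For Ttr against glucagon cells the shares were 8.75% and 7.3%.

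Serotonin and enterochromaffin genes were mostly higher, with 4 of 7 higher and 1 lower over all cells and a median ratio of 1.13. Tac1 was at 29.4 CPM in Isl1CKO and 6.02 CPM in control (log2 1.71), and Maob, which breaks amines down, at 22.6 CPM in Isl1CKO and 51.4 CPM in control (log2 −1.76). Retinoic acid genes had 0 higher and 1 lower of 9 over all cells, the lower one being Aldh1a1 (log2 −1.14). In insulin cells 3 of 6 were higher and 1 lower. Rbp4, the retinol carrier, was at 1772 CPM in Isl1CKO and 409 CPM in control insulin cells (log2 1.70). Of all genes compared, 5.21% were higher and 6.82% lower over all cells, and 4.97% and 4.73% in insulin cells. Immediate early genes, which dissociation can switch on, had 5 of 11 members at least 2-fold higher in the remaining Isl1CKO cells against the other Isl1CKO cells, such as Fos at 42.4 CPM in the remaining cells and 4.24 CPM in the others (log2 2.86). In that comparison 3.74% of all genes were higher and 4.97% lower. The part of immediate early genes in the Neurog3 and Cbfa2t3 levels of the remaining cells was not tested.

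Genes with class patterns most like each regulator were ranked over the 8 classes with at least 50 cells, among 11734 genes, by Pearson's r of log2(CPM + 1). With 8 points that share libraries and hormone load, these are descriptions only. Neurog3 was most like Kctd13, Zfp30 and Azin2 (r of 0.984 to 0.987), and Fev like Gna12, Tmem259 and Ablim1 (0.988 to 0.992). Sox4 was most like Ocln, which encodes a tight-junction protein, then Rpusd3 and Ppp2r2c (0.985 to 0.991), and Gadd45a like Pros1, Fig4 and Synpr (0.974 to 0.992). Pros1, the protein S gene, was at 63.9 CPM in Isl1CKO Chgb cells, 22.4 CPM in Isl1CKO insulin cells and 0.608 CPM in control insulin cells. Insm1 was most like Acvr1b, Cbfa2t3 like Ppm1k, Amotl2 like Pcid2 and Aldh1a3 like Tm4sf20 (0.956 to 0.997). Among the regulators themselves r was 0.88 for Neurog3 and Insm1, 0.57 for Neurog3 and Fev, and 0.06 for Fev and Cbfa2t3.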

How the data were processed

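The authors deposited whole-number UMI counts per gene and barcode, not normalized, for 46983 genes in each of 2 libraries, made with a 10x Chromium 3′ kit per the labels' protocols. Per the submitters' processing notes the build was GRCm38.p6 and the tools were STAR 2.7.3a with STARsolo, and Seurat 4.3.0.1 with no stated role. The Isl1CKO matrix lists 3020 barcodes of at least 4882 UMIs and was filtered before deposit. The control matrix lists 6794880 barcodes, of which 2504 passed 6825 UMIs, 1/10 of the 99th percentile of the top 3000, while 872 barcodes of at least 1000 UMIs lay below.

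Cells took the first class they passed, in the order given in the report. Scrublet (scanpy 1.11.5) marked 8 Isl1CKO and 22 control cells as doublets, which were kept in the main values. The Isl1CKO calls are too few for 3020 cells, so doublets may remain there. UMIs were summed per class and scaled to CPM. Genes with at least 50 UMIs on the side with the higher CPM were compared, and called at a ratio of 2 relative to the median gene. Ratios carry conditional binomial intervals, CPM Poisson intervals and shares Clopper-Pearson intervals, all exact at 95%. PCR and sampling of animals are not covered. The floor for a count of 0 is 3 UMIs. Mesenchyme-rich cells had 1% or more of their UMIs from 6 mesenchyme genes. The script was tested on simulated counts. Figures came from matplotlib 3.10.9 and sums from numpy 2.4.6, scipy 1.17.1 and pandas 2.3.3 in Python 3.11.15.

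The 9 genes, the class rules and the 15 gene lists were chosen with earlier results of these data known. Named genes are the 9 regulators, listed genes past 2-fold, and the 3 genes most like each regulator, leaving out uncharacterised, mitochondrial, ribosomal, Xist and Y-linked genes. A further gene of the class check and the proendocrine list is counted but not reported here.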

Additional observations from a re-analysis of the deposited data

How the results depend on the processing

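No paired analysis was possible because each genotype has 1 library. Of 52 alternative counts of regulators past 2-fold, 49 stayed within 1.5 times the main count. The main counts are small, and this rule ignores which genes passed and in which direction. Over all cells without centring, 3 higher and 0 lower replaced 1 higher and 1 lower, and this lay within it. In insulin cells 2 regulators passed, instead of 4, when cells were thinned to 4500 UMIs, which left 4 genes above the minimum, and 2 also passed among Xist cells, where Aldh1a3 was under the minimum and Gadd45a at 0.86. Among the remaining Isl1CKO cells 4 passed, instead of 2, without centring on the median gene, which shifts every ratio by 0.47. No ratio past 2-fold as reported reversed. Aldh1a3 over all cells, at −0.56 as reported, passed 2-fold in opposite directions, at 1.61 among Xist cells and at −1.02 among Y-linked cells, and was at −1.12 as a mean over cells and −1.25 after thinning. Fev stayed higher in the 3 comparisons of Isl1CKO with control, between 1.97 and 2.85 over all cells, 2.67 and 3.43 in insulin cells, and 1.59 and 2.04 in Ttr against glucagon cells (log2). Neurog3 over all cells ranged from −0.99 to 0.19, and Cbfa2t3 from −1.26 to −0.65. Of 375 single ratios 83 moved by more than their counting interval allows. Of 144 shares of cells with a UMI 134 did after thinning to 4500 UMIs, or to 1500 UMIs outside hormone and class genes. Thinning lowers such shares by its nature, so this last count does not measure how stable they are.

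Over all genes and all cells, 752 were higher and 983 lower, against 2444 and 508 without centring, 369 and 503 after thinning and 726 and 431 among Xist cells. In insulin cells 501 were higher and 477 lower, against 713 and 796 with a minimum of 20 UMIs, 147 and 124 after thinning and 367 and 257 among Xist cells. Ttr against glucagon cells gave 1044 higher and 871 lower, and 515 and 500 after thinning. The remaining Isl1CKO cells gave 441 higher and 586 lower, against 805 and 856 with a minimum of 20 UMIs and 234 and 303 after thinning. Leaving out cells rich in other lineages was chosen after the data were seen.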
